A study of Mus musculus with 20 samples.

Results

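In mouse CD4+/CD8+ double-positive thymocytes, 405 peaks of total RNA polymerase II (Pol II) lay in H3K4me1 chromatin away from H3K4me3. None overlapped a peak of the TATA-binding protein TBP. They were chosen by position alone: each overlapped an H3K4me1 peak, lay over 1000 bp from every H3K4me3 peak, and overlapped neither a TBP nor an H3K36me3 peak. Of 18037 total Pol II peaks, 8871 overlapped H3K4me1, 1172 of these were over 1000 bp from H3K4me3, 825 of those had no TBP peak, and 405 (2.25% of the list) also had no H3K36me3 peak. They are called TBP-free distal Pol II peaks here.

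The cells came from the thymus of wild type C57BL/6 mice, with an age of 5 to 6 weeks where the protocols state one, and were sorted magnetically for CD8 and then for CD4. No genotype or treatment was compared. Each of 16 targets had 1 list of peaks, made by the authors from chromatin immunoprecipitation and sequencing (ChIP-seq) or, for open chromatin, from FAIRE, which needs no antibody. The lists of CBP, Taf1 and TFIIB came from 1 replicate each and the other 13 from merged replicates, so the spread between animals or replicates behind the values below is unknown.

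Pol II is brought to a start site by general transcription factors. TBP, a subunit of TFIID like Taf1, binds first, TFIIA and TFIIB follow, TFIIF arrives with the polymerase, and TFIIE and TFIIH complete the complex and open the DNA. A kinase of TFIIH phosphorylates serine 5 of the Pol II tail (Ser5P) at initiation, while serine 2 phosphorylation (Ser2P) and the histone mark H3K36me3 are known from elongation along gene bodies. Enhancers, marked by H3K4me1 without H3K4me3 and often bound by the acetyltransferase CBP, can also be occupied by Pol II. ETS1 is a transcription factor that binds many regulatory elements of T cells.

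Of the 11 lists that did not take part in the choice, most were rare at these 405 peaks. Ser2P was found at 59 (14.6%, 95% Wilson interval 11.5 to 18.3), against 7.35% of all total Pol II peaks. Ser5P was found at 25 (6.17%, 4.22 to 8.95), against 36.7% of all. Overlap with Ser5P thus stood below its background share and overlap with Ser2P above it. All 59 peaks with Ser2P lay within 5000 bp of an H3K36me3 peak, and they fell on 36 Ser2P peaks. Among the general factors, TFIIE lay at 66 (16.3%, 13.0 to 20.2), against a background of 37.6%, and TFIIB at 45 (11.1%, 8.41 to 14.5), against 30.3%. TFIIH lay at 40 (9.88%, 7.34 to 13.2), against 18.3%, and Taf1 at 30 (7.41%, 5.24 to 10.4), against 14.7%. TFIIA lay at 14 (3.46%, 2.07 to 5.72), against 11%, and TFIIF at 5 (1.23%, 0.528 to 2.86), against 3.75%. All 6 general factors were below their background. CBP lay at 33 (8.15%, 5.86 to 11.2), near its background of 9.89%, and so did ETS1, at 15 (3.70%, 2.26 to 6.02) against 5.29%. FAIRE lay at 33 (8.15%, 5.86 to 11.2), against 19.1% of all. The intervals cover counting error only.

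**Figure D1:**
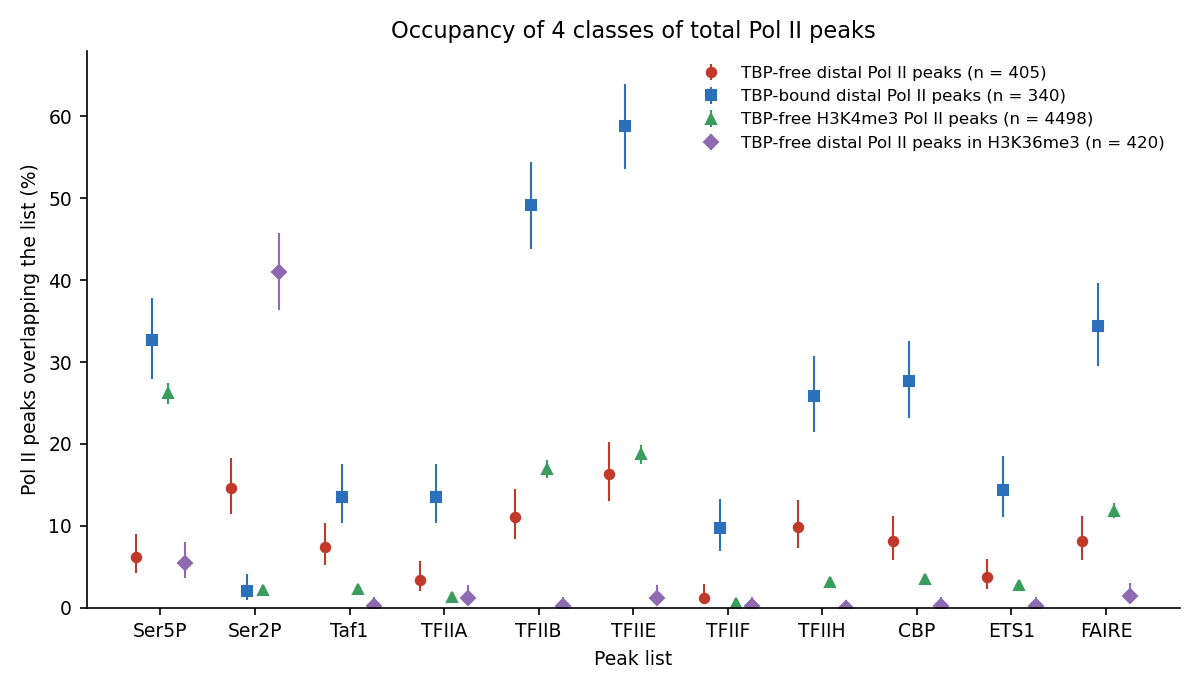
Share of Pol II peaks (%, y axis) that overlapped a peak of each of 11 lists (x axis), for TBP-free distal peaks (red circles), TBP-bound distal peaks (blue squares), TBP-free peaks in H3K4me3 (green triangles) and TBP-free distal peaks in H3K36me3 (purple diamonds), with 95% Wilson intervals as lines. The red circles lie below the blue squares in every list but Ser2P, where they stand at 14.6% against 2.06%, and the purple diamonds reach 41.0% for Ser2P.

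The nearest counterparts were 340 distal Pol II peaks that met the same conditions but overlapped a TBP peak. The shares of all 11 lists differed between the classes by more than counting error, with 10 lower at the TBP-free peaks and Ser2P higher. TFIIE, which recruits TFIIH, was at 16.3% against 58.8%, a difference of -42.5 percentage points (95% Newcombe interval -48.6 to -35.9). TFIIB, the bridge from TBP to the polymerase, was at 11.1% against 49.1%, a difference of -38.0 points (-44.0 to -31.7). Ser5P was at 6.17% against 32.6%, a difference of -26.5 points (-32.0 to -21.0). FAIRE was at 8.15% against 34.4%, a difference of -26.3 points (-31.9 to -20.5). CBP was at 8.15% against 27.6% (-19.5 points, -25.0 to -14.1), and TFIIH, whose kinase acts on serine 5, at 9.88% against 25.9% (-16.0 points, -21.5 to -10.5). ETS1 was at 3.70% against 14.4% (-10.7 points, -15.1 to -6.65).

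The remaining factors were also less frequent at the TBP-free peaks. TFIIA, which stabilises TBP on DNA, was at 3.46% against 13.5% (-10.1 points, -14.3 to -6.13). TFIIF was at 1.23% against 9.71% (-8.47 points, -12.2 to -5.31), and Taf1, the scaffold of TFIID, at 7.41% against 13.5% (-6.12 points, -10.7 to -1.73). In the upper 50% of the Pol II list by area the Taf1 interval reached 0 (-5.71 points, -11.4 to 1.45). It also did so with 1 Pol II peak per H3K4me1 peak (-4.95 points, -9.94 to 0.00354) and with no H3K36me3 peak within 5000 bp (-2.21 points, -8.32 to 4.42). Ser2P went the other way, at 14.6% against 2.06%, a difference of 12.5 points (8.75 to 16.4). The sizes of these gaps, and so their order, moved with the processing. With every list cut to its 1262 peaks of highest area, the length of the TFIIF list, the calls held but the differences were -8.47 for TFIIF, -8.18 for TFIIE, -7.72 for CBP, -7.34 for ETS1, -6.90 for TFIIH, -5.14 for TFIIA, -5.05 for TFIIB, -2.88 for Taf1 and FAIRE, and -2.06 for Ser5P. TBP-free peaks were also narrower and of lower area. Standardised on width, the calls held with differences of -28.7 for TFIIE, -27.8 for TFIIB, -16.9 for Ser5P and -12.5 for CBP. The part of area in the differences was not tested beyond the upper 50% by area.

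**Figure D2:**
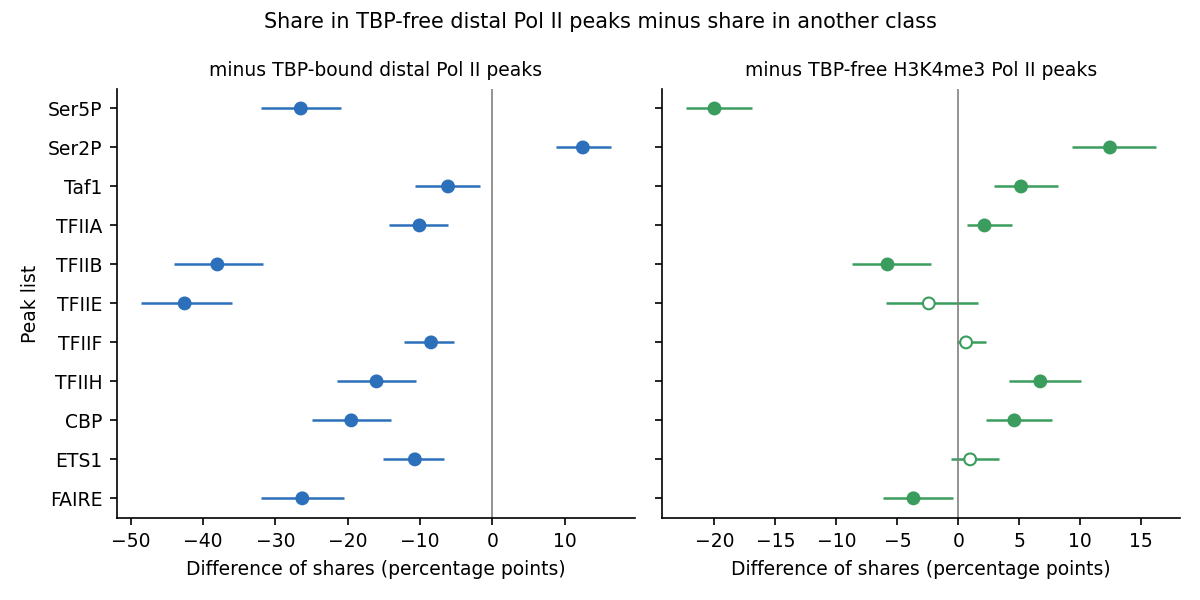
Share in TBP-free distal Pol II peaks minus the share in TBP-bound distal peaks (left) or in TBP-free peaks of H3K4me3 (right), in percentage points (x axis), for 11 lists (y axis). Lines are 95% Newcombe intervals and open points are differences whose interval holds 0. On the left all points but Ser2P are below 0, and on the right the points lie on both sides, from -20.0 for Ser5P to 12.4 for Ser2P.

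A separate comparison again took peaks without TBP overlap, but in other chromatin. It used 4498 Pol II peaks that overlapped H3K4me3, the mark of active promoters, and neither TBP nor H3K36me3. Distance to TBP was not matched, with a median of 660 bp at these peaks and 7830 bp at the 405. With no TBP peak within 500 bp, 2427 of the 4498 and 335 of the 405 were left. Ser5P was at 6.17% of the distal and 26.2% of the H3K4me3 peaks, a difference of -20.0 points (-22.3 to -16.9), which ran from -40.4 within 500 bp to -2.13 with lists of equal length. Ser2P was at 14.6% against 2.13%, a difference of 12.4 points (9.30 to 16.2). The direction of the first held in every setting tried, while the second depended on the distance to H3K36me3.

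The general factors divided into those more and those less frequent at the distal peaks. TFIIH was at 9.88% against 3.16% (6.72 points, 4.12 to 10.0), Taf1 at 7.41% against 2.27% (5.14 points, 2.92 to 8.14) and TFIIA at 3.46% against 1.31% (2.15 points, 0.708 to 4.43). TFIIB was at 11.1% against 16.9%, a difference of -5.81 points (-8.73 to -2.21). The intervals for TFIIE (-2.42 points, -5.90 to 1.64) and TFIIF (0.634 points, -0.122 to 2.27) held 0. CBP was more frequent at the distal peaks, at 8.15% against 3.56% (4.59 points, 2.23 to 7.71), and FAIRE less frequent, at 8.15% against 11.8% (-3.68 points, -6.17 to -0.473). For ETS1 the difference was 0.969 points (-0.568 to 3.33), which includes 0. In the upper 50% of the Pol II list by area, where 86 TBP-free distal peaks were left, the calls for Taf1 (-0.0315 points), TFIIA (0.594), TFIIB (-9.34), TFIIH (2.19) and CBP (-2.06) were lost. Those of Ser5P, Ser2P and FAIRE were kept, and the TFIIE difference, still below 0, was called there. When a peak within 500 bp counted in place of overlap, the calls for Taf1 (1.26), TFIIA (-1.02), TFIIH (0.876) and CBP (2.79) were lost as well, and those of TFIIB (-3.54) and FAIRE (-2.02) were lost when shares were standardised on width. With no H3K36me3 peak within 5000 bp, TFIIB (2.98), TFIIE (7.77) and FAIRE (1.15) turned to the other direction.

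A further 420 TBP-free distal Pol II peaks met the same conditions but overlapped an H3K36me3 peak. Ser2P was at 14.6% outside and 41.0% inside H3K36me3, a difference of -26.4 points (-32.1 to -20.4). Ser5P was at 6.17% outside and 5.48% inside, with an interval of the difference from -2.56 to 4.01 points, which holds 0. CBP was at 8.15% outside against 0.238% inside H3K36me3 (7.91 points, 5.37 to 11.0) and FAIRE at 8.15% against 1.43% (6.72 points, 3.90 to 9.89). The general factors were found at 0 (TFIIH) to 5 (TFIIA and TFIIE) of the 420 peaks. For TFIIH, the count of 0 carries an upper Wilson bound of 0.906%.

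The Ser2P peaks of the 405 lay beside H3K36me3 as well. All 59 Pol II peaks with Ser2P were within 5000 bp of an H3K36me3 peak, at a median gap of 1380 bp and a largest gap of 4730 bp. Of the 405 peaks, 220 (54.3%, 49.5 to 59.1) were within that distance, at which 26.8% (21.4 to 33.0) had Ser2P, and 185 were farther away, at which 0 had it (upper bound 2.03%). Without any peak within 5000 bp of H3K36me3, an alternative chosen after seeing this, no TBP-free distal peak with Ser2P was left, so by construction the Ser2P differences could not be above 0. They were -1.43 points (-3.61 to 0.785) to the TBP-bound distal and -0.239 points (-0.520 to 1.80) to the H3K4me3 peaks.

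Within the same 5000 bp of H3K36me3, the Ser2P share was lower at TBP-bound distal and at TBP-free H3K4me3 peaks. Their intervals did not overlap that of the TBP-free distal peaks, but these intervals leave out that Pol II peaks shared Ser2P peaks. Distances within that range were not matched: 22.2% of all TBP-free and 5.29% of all TBP-bound distal peaks lay within 1000 bp of H3K36me3. Of TBP-bound distal peaks, 60 of 340 (17.6%, 14.0 to 22.1) were within 5000 bp of H3K36me3, and 3 of these 60 (5.00%, 1.71 to 13.7) had Ser2P, as did 4 of the 280 farther away. Of the TBP-free H3K4me3 peaks, 90 of 1987 within that distance had it (4.53%, 3.70 to 5.53), and 6 of 2511 beyond. The median gap to H3K36me3 was 3370 bp at the 405 TBP-free peaks and 21860 bp at the TBP-bound distal peaks.

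General factors showed the reverse pattern along the same distance. At least 1 of the 6 was present at 28 of the 220 TBP-free distal peaks within 5000 bp of H3K36me3 (12.7%, 8.95 to 17.8) and at 94 of the 185 beyond (50.8%, 43.7 to 57.9). At TBP-bound distal peaks the share was 75.0% (62.8 to 84.2) within and 77.9% (72.6 to 82.3) beyond. TFIIB, at 3.18% within and 20.5% beyond, TFIIH, at 2.73% and 18.4%, and TFIIE, at 6.82% and 27.6%, all followed this order at the TBP-free peaks. Ser5P was at 2.73% (1.26 to 5.82) within and 10.3% (6.67 to 15.5) beyond. The 405 peaks thus held a part next to H3K36me3, in which Ser2P was the most frequent of the 11 lists, and a part away from it, in which TFIIE was.

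**Figure D3:**
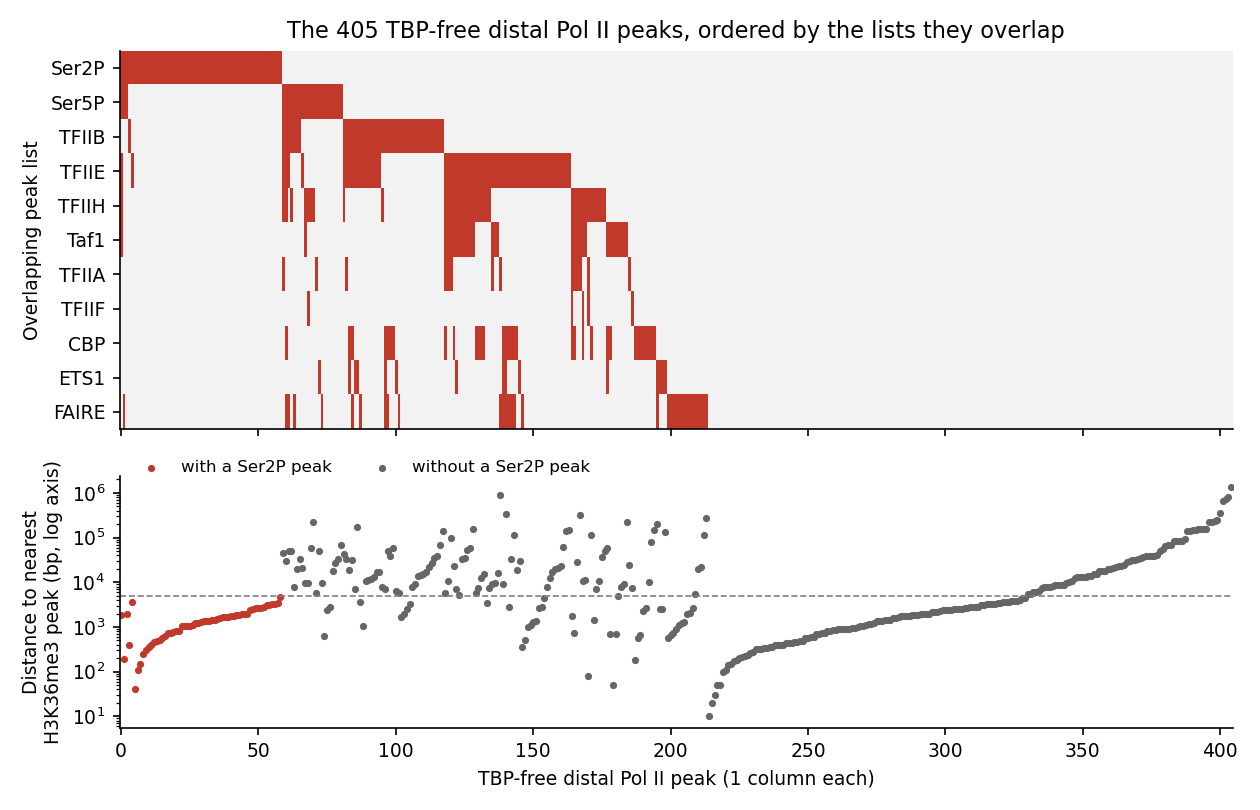
Each column is 1 of the 405 TBP-free distal Pol II peaks, ordered by the lists it overlapped: the upper panel marks overlap with each list (y axis) in red, and the lower panel gives the distance to the nearest H3K36me3 peak (bp, log axis; dashed line at 5000 bp), with red points for peaks with Ser2P. The 59 Ser2P columns at the left are nearly free of other lists and lie under the dashed line, while 191 columns at the right carry none of the 11 lists.

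Most peaks with Ser2P carried no other list. Of the 59 peaks with Ser2P, 54 carried no other of the 11 lists, which is 13.3% of the 405 (10.4 to 17.0), against 5.29% of all total Pol II peaks, 0.294% of TBP-bound distal peaks and 1.38% of TBP-free H3K4me3 peaks. The share was higher than at the 405 in the TBP-free distal peaks in H3K36me3, at 35.0% (30.6 to 39.7). Ser5P was at 3 of the 59 (5.08%, 1.74 to 13.9), near its 6.17% at the 405, and at 16.2% of all total Pol II peaks with Ser2P. The 59 Pol II peaks fell on 36 Ser2P peaks, with up to 4 on the same one, so that they do not count as 59 separate places. With 1 Pol II peak per H3K4me1 peak, the Ser2P difference to TBP-bound distal peaks was 8.58 points (4.92 to 12.6).

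These Ser2P peaks were of high area in their own list. Ranked by the authors' area among all 1811 Ser2P peaks, the 36 at TBP-free distal Pol II peaks had a median percentile of 88.0 (quartiles 68.7 and 91.5), and the 7 at TBP-bound distal peaks one of 28.9 (21.8 and 41.3). The Pol II peaks under them had a median width of 140 bp, against 90 bp for the 346 without Ser2P. All total Pol II peaks had a median of 140 bp as well. For Ser5P the order was the other way, at a median percentile of 32.2 at the TBP-free and 53.6 at the TBP-bound distal peaks. Areas are the authors' signal, and were used only to rank peaks within a list. Ser2P and Ser5P peaks at the other classes were not ranked, and the part of width in these ranks was not tested.

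The Pol II peaks of highest area among the 405 came from this part. They were also the 5 widest. The first, at chr15:97618291-97621240 (mm9), spanned 2950 bp with an area of 457335, at the 99.7th percentile of the Pol II list, and carried Ser5P, Ser2P and FAIRE. It lay 190 bp from H3K36me3 and 2610 bp from H3K4me3. The second, at chr12:109150031-109150800 (770 bp, area 104692), and the next but one, at chr12:109149321-109149770 (450 bp, area 60792), lay in the same stretch and carried Ser2P alone. The third, at chr6:71337501-71338140 (640 bp, area 80904), carried Ser2P and TFIIB, and the fifth, at chr9:66361821-66362320 (500 bp, area 58733), Ser2P alone. All 5 thus had Ser2P, which lay at 27.9% of the members wider than 130 bp. None of the 5 had CBP or ETS1. With shares of 8.15% and 3.70% over the 405, 5 peaks are too few to show a difference.

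Apart from Ser2P, the lists met each other in small groups. The 405 peaks showed 68 combinations of the 11 lists, of which 45 were held by 1 peak. No list was present at 191 peaks (47.2%, 42.3 to 52.0), 1 list at 133, 2 lists at 34 and 3 or more at 47 (11.6%, 8.84 to 15.1). Among all total Pol II peaks 26.7% had none and 32.9% had 3 or more. At TBP-bound distal peaks 12.1% (9.01 to 16.0) had none and 53.2% (47.9 to 58.5) had 3 or more. TBP-free H3K4me3 peaks, at 43.9% and 8.38%, stood close to the 405. Of the TBP-free distal peaks in H3K36me3, 56.7% had none and 1.19% had 3 or more.

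General factors that bind in sequence were not always found together. Taf1 was with TFIIH at 19 of its 30 peaks (63.3%, 45.5 to 78.1), as at 61.9% of all total Pol II peaks with Taf1. TBP-bound distal peaks with Taf1 had higher shares, with TFIIH at 91.3% (79.7 to 96.6) and TFIIE at 84.8% (71.8 to 92.4). TFIIE lay at 15 of the 30 TBP-free distal peaks with Taf1 (50.0%, 33.2 to 66.8), against 63.2% of all total Pol II peaks with Taf1. TFIIB lay at 0 of these 30 (upper bound 11.4%), against 24.2% of all total Pol II peaks with Taf1, 15.2% (7.57 to 28.2) of the TBP-bound distal ones with Taf1 and 11.1% of the 405. FAIRE lay at 0 of the 30 as well, against 14.3%, 6.52% (2.24 to 17.5) and 8.15%. The upper bound of 11.4% for 0 of 30 lay below both shares over all total Pol II peaks with Taf1, 24.2% and 14.3%. It was above both shares over the 405, but the 405 include these 30, and the rest of the 405 was not compared separately. TFIIB was with TFIIE at 17 of its 45 peaks (37.8%, 25.1 to 52.4), against 67.4% of all total Pol II peaks with TFIIB and 72.5% (65.2 to 78.7) of the TBP-bound distal ones. It was with FAIRE at 8 (17.8%, 9.29 to 31.3), against 42.0% and 47.9% (40.5 to 55.4). The pair of TFIIB and TFIIE was at 4.20% of the TBP-free and 35.6% of the TBP-bound distal peaks, against 20.4% of all. The pair of Taf1 and TFIIH was at 4.69% and 12.4%, against 9.09%.

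Few TBP-free peaks carried a larger set of general factors. At least 1 of the 6 lay at 122 peaks (30.1%, 25.9 to 34.8), against 55% of all total Pol II peaks, and at least 3 at 23 (5.68%, 3.81 to 8.38), against 16.9%. At the TBP-bound distal peaks these shares were 77.4% and 22.6%, and at TBP-free H3K4me3 peaks 32.5% and 1.45%. The most lists at 1 peak was 6, at chr19:53577611-53577700, a peak of 90 bp with Ser5P, TFIIB, TFIIE, TFIIH, CBP and FAIRE that lay 30 bp from a TBP peak. The next 4 had 5 lists each. Taf1, TFIIA and TFIIH met with CBP and TFIIE at chr9:97005971-97006100, and with CBP and TFIIF at chr9:72526791-72526870. Ser5P met TFIIA, TFIIB, TFIIE and TFIIH at chr6:119997911-119998030, and met Ser2P, Taf1, TFIIE and TFIIH at chr19:10707031-10707130.

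CBP, ETS1 and open chromatin were present at a small part of the peaks. At least 1 of the 3 lists lay at 66 TBP-free distal peaks (16.3%, 13.0 to 20.2), against 26.7% of all total Pol II peaks. The share was 15.7% (14.7 to 16.8) at TBP-free H3K4me3 peaks and 54.1% (48.8 to 59.3) at TBP-bound distal ones. All 3 lay together at 3 peaks (0.741%), against 1.49% of all and 3.53% of TBP-bound distal peaks. These 3 were chr13:46435311-46435410, 77880 bp from H3K4me3 and 130 bp from TBP, chr7:25179561-25179620, which lay 10 bp from a TBP peak, and chr5:107783191-107783250, 3600 bp from TBP. Each carried 1 more list, TFIIE on chromosomes 13 and 5 and TFIIB on chromosome 7. Their areas, 9976, 5585 and 5058, were at the 30.4th percentile of the Pol II list or lower.

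The 191 Pol II peaks with none of the 11 lists were small. Their median width was 80 bp and their median area 7780. Within 5000 bp of H3K36me3 lay 60.7% (53.7 to 67.4) of them, near the 54.3% of all 405. Within 500 bp of the peak, rather than over it, 104 of the 405 (25.7%, 21.7 to 30.1) had none of the lists. The share was 6.76% (4.55 to 9.95, 23 of 340) at TBP-bound distal peaks and 16.2% (15.2 to 17.3) at TBP-free H3K4me3 peaks. It was higher than at the 405 in the TBP-free distal peaks in H3K36me3, at 38.3% (33.8 to 43.1). The share over all total Pol II peaks was not computed for this window. The 3 empty peaks of highest area were chr1:60132431-60132720 (area 34716), chr4:100857931-100858200 (32517) and chr10:128154241-128154460 (28246), and all 3 were within 1000 bp of H3K36me3.

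The 405 peaks were narrow and of low area as a whole. Their width ran from 30 to 2950 bp with a median of 100 bp (quartiles 60 and 140), against 150 bp at TBP-bound distal, 120 bp at TBP-free H3K4me3 and 140 bp at all total Pol II peaks. Their median area was 8681, at the 25.3rd percentile of the Pol II list, against 15631 at the TBP-bound distal peaks, at the 50.9th percentile. Area per bp had a median of 90.7, near the lower quartile of the whole list, 90.4. The whole list had a lowest value of 81.3 and a median of 104. Medians were 103 at TBP-bound distal, 97.5 at TBP-free H3K4me3 and 94.6 at TBP-free distal peaks in H3K36me3. Among peaks of at most 70 bp, those up to 130 bp and wider ones, 55.3% (47.3 to 62.9), 45.1% (37.1 to 53.3) and 38.7% (30.2 to 48.0) had none of the 11 lists. Ser2P, at 9.87%, 9.15% and 27.9% in the same order, was highest in the wide peaks. At least 1 of the 6 general factors was at 23.0%, 39.4% and 27.9%, highest in the middle, and CBP, at 7.89%, 12.7% and 2.70%, was lowest in the wide peaks.

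**Figure D4:**
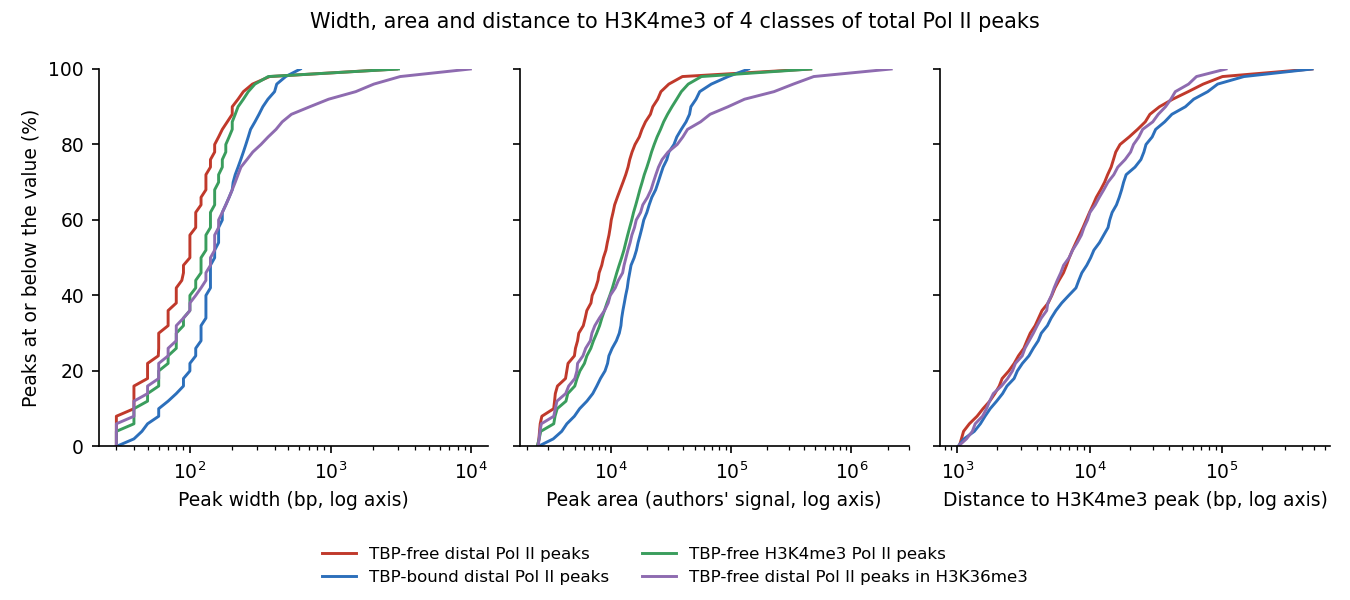
Share of peaks (%, y axis) at or below a given width (bp), area (authors' signal) or distance to the nearest H3K4me3 peak (bp), all on log axes, for the 4 classes of total Pol II peaks (3 for distance, since peaks in H3K4me3 have none). The red curve of the TBP-free distal peaks lies left of the others over most of its range for width and area, with medians of 100 bp and 8681, while its curve of distance, with a median of 7000 bp, runs to the left of the blue one of TBP-bound distal peaks (10165 bp).

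Distance to H3K4me3, of which the choice of peaks fixed the lower limit, had a median of 7000 bp (quartiles 3050 and 14830) and reached 479680 bp. TBP-bound distal peaks had a median of 10165 bp. Over 20000 bp away were 73 of the 405 (18.0%, 14.6 to 22.1) and 94 of the 340 (27.6%, 23.2 to 32.6). Ser2P was at 14.4% (9.77 to 20.6) of TBP-free peaks up to 5000 bp from H3K4me3, at 20.3% (15.0 to 27.0) of those from 5000 to 20000 bp and at 1 of the 73 beyond (1.37%, 0.242 to 7.36). FAIRE was at 7.50%, 5.81% and 15.1% in the same order and CBP at 6.25%, 7.56% and 13.7%, with intervals that overlapped.

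At the limit of 1000 bp, the nearest peaks inside lay 1030 bp from H3K4me3. They were chr19:57206111-57206140, with TFIIB, TFIIE, CBP and ETS1, and chr4:100857931-100858200 and chr8:73199341-73199400, both with none of the 11 lists. Just outside were chr12:56485801-56485930 and chr5:138127541-138127600, at 980 bp and with none, and chr1:167731091-167731280, at 970 bp with Ser2P, TFIIB and TFIIH. In all, 201 Pol II peaks met every other condition but lay beside an H3K4me3 peak at no more than 1000 bp.

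The absence of TBP was a matter of overlap, and some of the peaks lay next to TBP. The median distance to a TBP peak was 7830 bp, but 51 of the 405 (12.6%, 9.71 to 16.2) were within 100 bp and 70 (17.3%, 13.9 to 21.3) within 500 bp. At those 70, Ser5P was at 12.9% (6.91 to 22.7) and FAIRE at 15.7% (9.01 to 26.0), against 4.78% (2.96 to 7.62) and 6.57% (4.38 to 9.74) at the other 335. Ser2P was at 4.29% (1.47 to 11.9), TFIIH at 4.29% (1.47 to 11.9) and Taf1 at 1.43% (0.253 to 7.66) of the 70, against 16.7% (13.1 to 21.1), 11.0% (8.12 to 14.9) and 8.66% (6.09 to 12.2) of the 335. Of the 11 lists, Ser2P alone had intervals that did not overlap between the 70 and the 335. Of the 5 peaks farthest from H3K4me3, 4 were within 120 bp of TBP and carried none of the 11 lists. These were chr2:178292681-178292720 (479680 bp from H3K4me3), chr4:114273851-114273900 (306890 bp), chr6:84097631-84097750 (232060 bp) and chr14:22107201-22107250 (210870 bp). The fifth, chr12:78890291-78890390 (436020 bp), was 436880 bp from TBP and carried Taf1, TFIIA and TFIIH. Leaving out the 70 peaks kept all 11 calls against the TBP-bound distal peaks.

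Some of the peaks had close neighbours. Another total Pol II peak lay within 100 bp of 86 of the 405 peaks (21.2%), and at 12 of these 86 the neighbour overlapped TBP. The share with such a neighbour was not computed over all total Pol II peaks or in the other classes. The 405 peaks fell in 326 H3K4me1 peaks, which were broad, with a median width of 2185 bp against 640 bp for all H3K4me1 peaks and 2140 bp for the 325 that held TBP-bound distal peaks. Of these, 50 held 2 or more of the 405, with up to 7, whereas 15 held 2 TBP-bound peaks and none held more. H3K4me1 covered 375 of the 405 peaks over their full width (92.6%), against 83.8% of the TBP-bound ones.

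With peaks joined over gaps of up to 10000 bp, the 405 formed 286 chains, of which 236 were single peaks. In contrast, 11 chains of at least 5 held 81 peaks. The longest by count, at chr6:8469101-8484790, had 16 in 15.7 kb, together with 11 Ser2P peaks, 11 H3K4me1 peaks and 2 H3K36me3 peaks, and no TBP, H3K4me3, Ser5P or FAIRE peak. Its 16 Pol II peaks were 30 to 370 bp wide, with areas from 2478 to 38017. Of these 16, 6 carried Ser2P and 1 carried TFIIH. On chromosome 12, chains at chr12:109147831-109160660 (11 peaks, 4 with Ser2P), chr12:109201001-109208810 (9, 0 with Ser2P) and chr12:109170891-109178540 (6, 1 with Ser2P) lay close together. That chromosome held 40 of the 405, which was 5.59% of its 715 total Pol II peaks, against 2.25% over the genome. The chain at chr9:44798191-44808460 had 7 peaks, 6 with Ser2P on 2 Ser2P peaks. These chains were singled out after their values were seen. Without the 4 largest on chromosomes 12 and 6, the Ser2P difference to the TBP-bound distal peaks was 11.2 points (7.40 to 15.2).

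**Figure D5:**
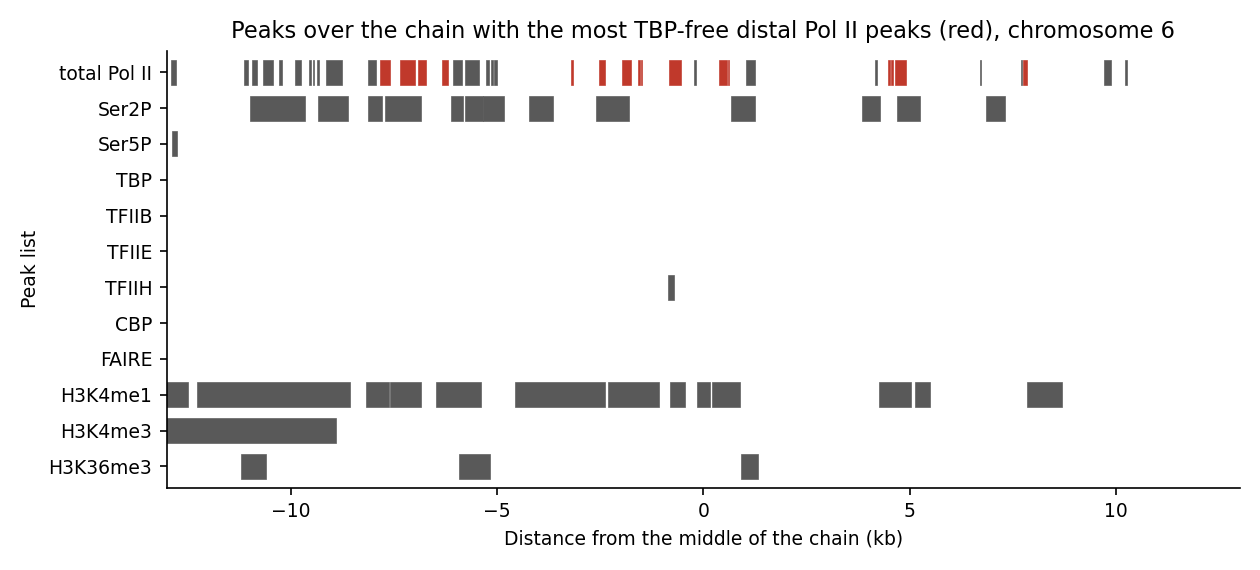
Peaks of 12 lists (y axis) along the chain on chromosome 6, by distance from its middle (kb, x axis), with the 16 TBP-free distal Pol II peaks in red and all other peaks in grey. Ser2P and H3K4me1 peaks lie along the whole chain, and TFIIH has 1 peak, near the middle. TBP, TFIIB, TFIIE, CBP and FAIRE have no peak in view, and the only H3K4me3 peak lies left of the chain.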

How the data were processed

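For each target the authors deposited 1 list of peaks with chromosome, start, end and area. The area is a signal, which the authors' file names give as the area under a track. Track names in the files record removal of artefact regions, scaling and background subtraction for all targets except FAIRE, and merged replicates for 13 of 16 lists. Peak widths were multiples of 10 bp. The build was mm9, per the submitters' processing notes. Read depth is unknown, and for the aligner, the peak caller and its threshold the entry is: not given in the sources used here. ETS1 was precipitated with sheep anti-rabbit beads and all other proteins with Protein-G beads, per the labels' protocols. Both RNA samples, the input and the rabbit immunoglobulin control were not analysed here.

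Overlap meant at least 1 bp shared, and distance the number of bases between 2 peaks. Shares carry 95% Wilson intervals, and the 26 differences of shares carry 95% Newcombe intervals. A difference was called where its interval excluded 0. No p-value was computed, since each target had 1 list, and the intervals are not adjusted for 26 differences. Neighbouring peaks are not independent, which the intervals leave out. The members and lists were chosen with earlier results of these data known. Named regions were the 5 of highest area, the 5 widest, the 5 with most lists, the 5 farthest from and the 3 nearest H3K4me3 on each side of the limit, and the 3 of highest area with Ser2P, with CBP, ETS1 and FAIRE together, and with none. Genes and sequences of mm9 were not used here. Code for overlap, distance and intervals was tested on simulated data. The software was Python 3.11.15 with scipy 1.17.1, numpy 2.4.6 and pandas 2.3.3, and figures came from matplotlib 3.10.9.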

Additional observations from a re-analysis of the deposited data

How the results depend on the processing

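Each of the 26 differences was recomputed under 9 planned and 2 added settings, and 240 of 286 values kept their direction and their call. Against TBP-bound distal peaks, 117 of 121 did, but sizes moved: with occupancy lists cut to 1262 peaks each, Ser5P went from -26.5 to -2.06, FAIRE from -26.3 to -2.88, TFIIB from -38.0 to -5.05 and TFIIE from -42.5 to -8.18. The exceptions were Taf1, at -5.71 points in the upper 50% of Pol II by area, -4.95 with 1 Pol II peak per H3K4me1 or H3K4me3 peak and -2.21 with no H3K36me3 peak within 5000 bp, and Ser2P, at -1.43 under the last of these, which by construction leaves no TBP-free distal peak with Ser2P. Against TBP-free H3K4me3 peaks, 87 of 121 did, and the Ser5P call held in all 11 settings, from -40.4 within 500 bp to -2.13 with shortened lists. With no H3K36me3 peak within 5000 bp, Ser2P became -0.239, TFIIB 2.98, TFIIE 7.77, ETS1 4.44 and FAIRE 1.15. With occupancy peaks within 500 bp, Taf1 became 1.26, TFIIA -1.02, TFIIE -20.8, TFIIF -0.292, TFIIH 0.876, CBP 2.79 and ETS1 -0.606. In the upper 50% by area, Taf1 became -0.0315, TFIIA 0.594, TFIIB -9.34, TFIIE -14.5, TFIIF -0.866, TFIIH 2.19, CBP -2.06 and ETS1 -2.18. With at least 50% of the Pol II peak covered, TFIIB became -1.73, TFIIE 0.548 and FAIRE -1.17. With occupancy lists cut to 1262 peaks each, TFIIB became -0.264, TFIIE 0.301, ETS1 -0.0970 and FAIRE -1.48. Standardised on width, TFIIB became -3.54, TFIIE 0.183 and FAIRE -2.02. With 1 Pol II peak per H3K4me1 or H3K4me3 peak TFIIB was -4.27, over 5000 bp from H3K4me3 FAIRE was -3.26, with no TBP peak within 500 bp ETS1 was -0.0850, and without the 4 largest chains on chromosomes 12 and 6 FAIRE was -3.01. Against TBP-free distal peaks in H3K36me3, Ser5P became 2.74 with 50% covered, -2.79 in the upper 50% by area, -0.512 with no TBP within 500 bp, -1.28 with 1 per H3K4me1 peak and 4.79 with no H3K36me3 within 5000 bp. In the upper 50% by area CBP became 1.78 and FAIRE 3.01, and with shortened lists FAIRE became 0.996. The share of peaks with none of the 11 lists was 56.5% with 50% covered, 25.7% within 500 bp, 33.7% in the upper 50% by area, 76.5% with shortened lists and 40.5% with no H3K36me3 within 5000 bp. Of peaks with Ser2P, 96.4% had no other list with 50% covered and 100% with shortened lists. The upper 50% by area left 86 peaks with a median width of 200 bp and area of 22067, by its construction. Over 5000 bp from H3K4me3 there were 245, with a median distance of 12800 bp, with H3K36me3 overlap allowed 825, and with no H3K36me3 within 5000 bp 185. Where no construction shows it, the cause was not tested. No paired analysis was possible because each target had 1 list. Read depth was unknown, so the absence of a peak cannot be told apart from a signal below the authors' threshold.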
